A study of Mus musculus with 88 samples.

Results

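Vegfa, Hilpda and Ddit4 are 3 genes of the 10518 measured here that are known as hypoxia targets. They were selected on their log2 ratios with isoproterenol or prostaglandin E2, which were above 0 in these same data. Their values with those 2 ligands alone are therefore a description and carry no test. Tests of either ligand given with lipopolysaccharide are not independent of that choice. Each gene had 1 probe on the array. Vegfa encodes vascular endothelial growth factor A, a secreted ligand that drives the growth and leakiness of blood vessels. Hilpda encodes a small lipid droplet protein that inhibits the triglyceride lipase ATGL. Ddit4, also known as REDD1, encodes an inhibitor of the growth kinase complex mTORC1.

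Under low oxygen, the subunit HIF-1α escapes hydroxylation and destruction through the VHL ubiquitin ligase, pairs with ARNT and binds short response elements beside its targets. In macrophages, lipopolysaccharide can also stabilise HIF-1α through NF-κB without hypoxia. Ligands that raise cyclic AMP, which activates protein kinase A and the transcription factor CREB, are known to act on several of the same genes.

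RNA came from RAW 264.7 cells, a mouse macrophage-like line. Cells received lipopolysaccharide (LPS, a bacterial ligand of TLR4) at 100 ng/ml, isoproterenol (ISO, an agonist of beta-adrenergic receptors) at 50 nM, prostaglandin E2 (PGE2) at 10 µM, LPS with ISO, or LPS with PGE2. The labels name lipid binding protein at 100 pM for LPS alone and do not name it for the combinations. If the combinations lacked it, its effect and that of ISO or PGE2 cannot be told apart in comparisons with LPS alone or in sums. Each treatment lasted 1, 2 or 4 h, and each treated RNA was hybridised on a 2-colour array against RNA of time-matched cells in medium alone. The 15 groups held 3 sets each, except PGE2 at 1 h with 2 sets, and a set was a pair of arrays with the dyes swapped. The labels do not say whether sets were separate cultures, so the spread behind each p-value may be technical. Nor do they say whether arrays of a set and time shared one medium RNA. If they did, the tests of LPS against medium share it with the ratios that chose the genes.

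All values are log2 ratios of treated over medium, so 1 means a doubling. That direction is likely rather than stated: 19 of 20 listed LPS-induced genes were measured, and on each of the 18 LPS arrays their median was positive (range 1.60 to 3.25). The table held no intensities, so depth, signal and expression level are unknown, and the number of arrays limits the precision. Of 12 macrophage markers 11 were measured, with a median of 88 of 88 arrays at a value other than 0. Of 25 markers of other cell types 22 were measured, with a median of 46 arrays, and 1 of them rose with LPS at 4 h (Eng, log2 ratio 0.44, limma adjusted p = 0.000247). In such bulk RNA, more cells with a transcript and more transcript per cell cannot be told apart.

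The sequences before the transcription starts are shown because the genes are known through response elements of this kind. They are 250 bases each, from RefSeq (GRCm38.p6), in which all 3 genes matched. Capitals mark the core of the hypoxia response element (ACGTG or GCGTG) and the short form of the cyclic AMP response element (CRE, TGACG), both searched on either strand.

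Vegfa, chr17:46032378-46032627, minus strand: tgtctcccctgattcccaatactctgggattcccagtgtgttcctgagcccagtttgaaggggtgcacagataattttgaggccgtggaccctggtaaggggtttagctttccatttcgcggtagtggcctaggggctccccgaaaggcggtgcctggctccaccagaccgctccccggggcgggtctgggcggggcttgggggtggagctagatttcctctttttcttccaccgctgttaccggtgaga
Hilpda, chr6:29272238-29272487, plus strand: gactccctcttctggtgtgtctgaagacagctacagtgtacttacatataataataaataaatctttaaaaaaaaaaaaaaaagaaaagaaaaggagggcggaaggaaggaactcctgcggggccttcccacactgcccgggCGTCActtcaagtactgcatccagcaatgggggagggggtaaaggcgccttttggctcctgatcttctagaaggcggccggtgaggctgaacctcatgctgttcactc
Ddit4, chr10:59951771-59952020, minus strand: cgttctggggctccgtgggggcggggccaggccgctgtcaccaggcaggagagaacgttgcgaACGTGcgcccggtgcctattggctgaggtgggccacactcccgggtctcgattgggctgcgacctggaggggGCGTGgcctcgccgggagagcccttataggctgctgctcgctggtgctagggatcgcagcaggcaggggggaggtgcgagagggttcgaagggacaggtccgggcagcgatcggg

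The Ddit4 window held 2 hypoxia cores, 187 and 115 bases before the start, and no short CRE. The Hilpda window held 1 short CRE on the opposite strand, 108 bases before the start, and no hypoxia core. A second Hilpda start downstream had 3 hypoxia cores and 2 short CREs in its own 250 bases, and its window overlaps the first. The short CRE 246 bases before that second start is the same site as the one in the first window. The Vegfa window held neither, and the window of a second start inside the gene held 2 hypoxia cores and 1 short CRE, which overlap in part. Of 32851 windows of this length in the table, 38.6% held a hypoxia core, 17.8% a short CRE and 1.55% the full element TGACGTCA, which none of the 5 member windows held. A match is only a match of letters, and bases outside these windows were not searched.

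With ISO or PGE2 alone, all 3 genes stood above medium in every set at 1 and 2 h. Means were lower at 4 h than at 2 h for each gene and ligand, by little for Vegfa with PGE2 (0.45 against 0.49), but not in every set. Vegfa with ISO measured 0.97, 0.93 and 0.91 in the 3 sets at 1 h, 0.38, 0.96 and 0.86 at 2 h, and 0.07, 0.05 and 0.08 at 4 h. With PGE2 it measured 0.75 and 0.53 at 1 h, 0.23, 0.76 and 0.49 at 2 h, and 0.59, 0.39 and 0.36 at 4 h. Set 1 with PGE2 was thus higher at 4 h than at 2 h. At 4 h the PGE2 sets lay above all ISO sets, while at 1 h the ISO sets lay above both PGE2 sets.

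Hilpda had the highest ratios of the 3 genes with a single ligand at 1 h. Its ISO sets measured 1.95, 1.81 and 1.66 at 1 h, 1.18, 1.78 and 0.86 at 2 h, and 0.03, 0.03 and −0.11 at 4 h. Its PGE2 sets measured 1.72 and 1.33 at 1 h, 0.71, 1.48 and 0.57 at 2 h, and 0.24, 0.21 and 0.01 at 4 h. The means at 1 h correspond to 3.50-fold with ISO (log2 1.81 ± 0.14, SD, n = 3) and 2.88-fold with PGE2 (1.53 ± 0.27, n = 2). By 4 h both lay near medium.

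Ddit4 with ISO measured 1.54, 1.28 and 1.23 at 1 h and 0.71, 1.02 and 0.57 at 2 h. With PGE2 it measured 1.30 and 0.98 at 1 h and 0.59, 0.93 and 0.53 at 2 h. At 4 h set 1 stood apart in both groups, at 1.24 against −0.55 and −0.29 with ISO and at 1.42 against −0.24 and 0.09 with PGE2. That set was higher at 4 h than at 2 h with both ligands. The 4 h means, 0.13 ± 0.97 and 0.42 ± 0.88 (SD, n = 3), therefore rest on that set.

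**Figure D1:**
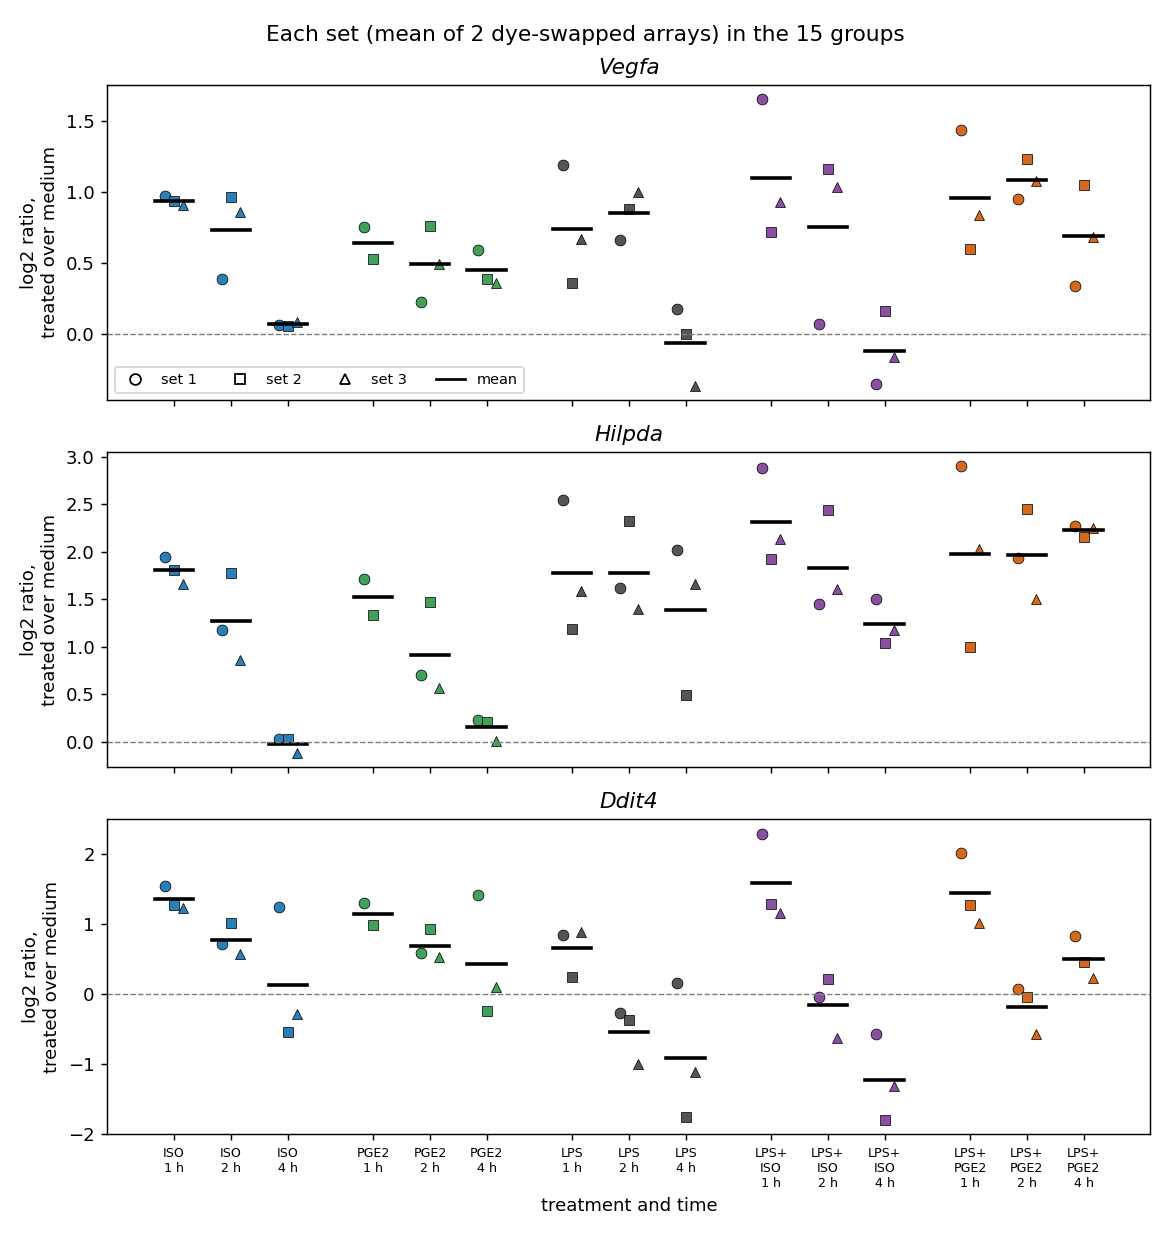
Log2 ratio of treated over medium (vertical axis) for each gene in the 15 groups (horizontal axis), with 1 symbol per set and a bar at the mean. With LPS at 4 h, Hilpda stayed at a mean of 1.39 while Vegfa lay at −0.06 and Ddit4 at −0.91.

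With LPS alone, Hilpda rose at all 3 times, Vegfa rose at 1 and 2 h and was not called at 4 h, and Ddit4 fell at 4 h. Over all 10518 genes, limma called 997 at 1 h (9.48%), 1671 at 2 h (15.9%) and 3228 at 4 h (30.7%) (Benjamini-Hochberg adjusted p under 0.05, all 15 groups in 1 fit). Of the members, 2 were called at each time.

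The ligand Vegfa measured 1.19, 0.36 and 0.67 at 1 h with LPS, 0.66, 0.88 and 1.00 at 2 h, and 0.18, 0.00 and −0.36 at 4 h. All sets at 1 and 2 h lay above those at 4 h, a description without a count over all genes. The mean was 1.67-fold at 1 h (log2 0.74, SE 0.18, limma adjusted p = 0.00543) and 1.80-fold at 2 h (0.85, SE 0.18, adjusted p = 0.000617). At 4 h it was −0.06 (95% interval −0.43 to 0.30, limma adjusted p = 0.945). The 1 h call rests on set 1: without it the value was 0.51 (limma adjusted p = 0.251).

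Hilpda, the lipid droplet protein, measured 2.55, 1.19 and 1.59 at 1 h with LPS, 1.62, 2.33 and 1.40 at 2 h, and 2.02, 0.49 and 1.67 at 4 h. Every set lay above 0. The means were 3.43-fold, 3.44-fold and 2.62-fold, with limma adjusted p = 2.91e-05, 1.07e-05 and 0.000134. One of the 2 arrays of set 2 at 4 h is listed at exactly 0, which pulls that set toward 0, and from the other array alone it is 0.98.

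Ddit4, the mTORC1 inhibitor, measured 0.84, 0.23 and 0.88 at 1 h with LPS, −0.27, −0.37 and −1.01 at 2 h, and 0.15, −1.76 and −1.12 at 4 h. All sets were above medium at 1 h and below it at 2 h, and at 4 h set 1 lay above while the others lay well below. The mean at 4 h was −0.91 (SE 0.31, 1.88-fold lower, limma adjusted p = 0.0222). Without set 2 it was −0.49 (limma adjusted p = 0.412). With 1 set left out, the call held only without set 1, the set above medium (−1.44, limma adjusted p = 0.00162). The means at 1 h (0.65, limma adjusted p = 0.215) and 2 h (−0.55, limma adjusted p = 0.279) did not pass.

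Same-numbered sets of a time deviated together, so the fit was repeated with the set as a block within each time. This block was chosen after the data were seen. With it Ddit4 passed at 1 h (limma adjusted p = 0.00251) and at 2 h (limma adjusted p = 0.00696), where 19.7% and 24.8% of all genes passed. For a comparison with medium this block takes out spread that the groups share, so those p-values leave out that shared spread. Leaving out set 1 at 1 h gave Ddit4 limma adjusted p = 0.0549 with the block, and leaving out set 3 at 2 h gave 0.291.

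The change of the LPS response from 1 to 4 h differed from 0 in 19.9% of all genes. It was −0.80 for Vegfa (SE 0.25, limma adjusted p = 0.0194) and −1.56 for Ddit4 (SE 0.44, limma adjusted p = 0.00869), and the sets of the 2 times did not overlap for either gene. It was −0.39 for Hilpda (95% interval −1.19 to 0.41, limma adjusted p = 0.623). How many of all genes had sets without overlap was not counted. Without set 1 of LPS at 1 h the Vegfa value was −0.58 (limma adjusted p = 0.176), and without set 2 of LPS at 4 h the Ddit4 value was −1.14 (limma adjusted p = 0.0971). The call of this change held in 10 of 15 alternatives for Vegfa and in 12 of 15 for Ddit4. With only the compared groups in the fit, none of the LPS calls of the 3 genes held, with limma adjusted p from 0.062 to 0.401.

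With LPS and PGE2 all 3 genes lay above medium in every set at 4 h, while with LPS and ISO most sets of Vegfa and all sets of Ddit4 lay below it. Vegfa at 4 h measured 0.33, 1.05 and 0.68 with LPS and PGE2 and −0.36, 0.16 and −0.16 with LPS and ISO. Hilpda measured 2.28, 2.15 and 2.25 against 1.50, 1.04 and 1.18. Ddit4 measured 0.83, 0.46 and 0.22 against −0.57, −1.80 and −1.31. For each gene the lowest set with PGE2 lay above the highest set with ISO and above the highest set with LPS alone. How many of all genes separated in the same way was not counted, so this is a description.

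**Figure D2:**
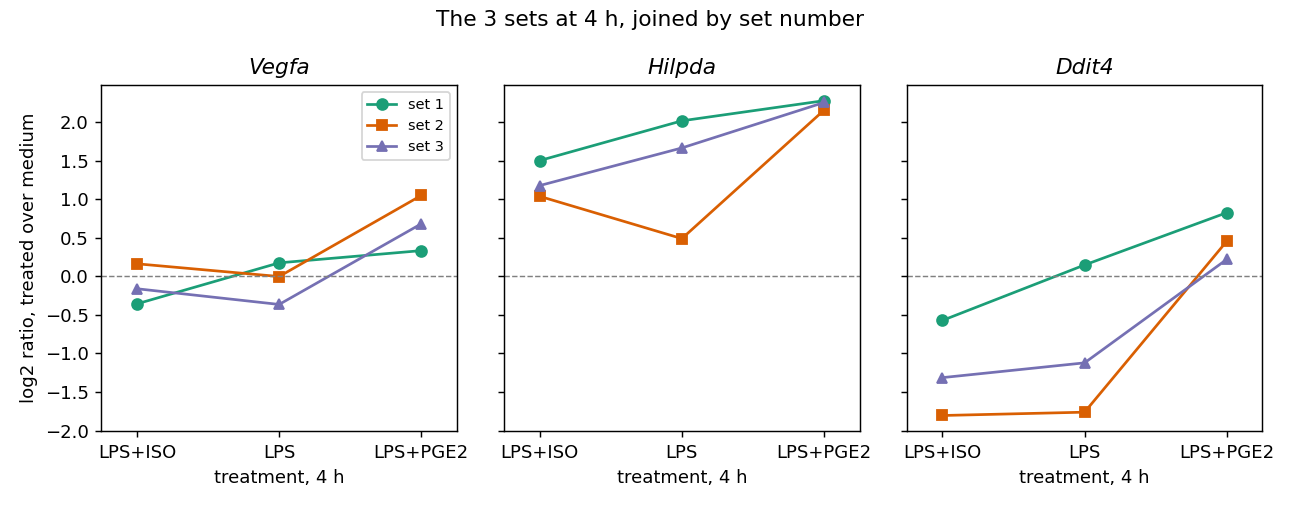
Log2 ratio of treated over medium (vertical axis) at 4 h for LPS with ISO, LPS alone and LPS with PGE2 (horizontal axis), with lines joining sets of 1 number. In each set and gene the value with LPS and PGE2 is the highest of the 3, and the set-matched difference, LPS with ISO minus LPS with PGE2, runs from −0.69 in Vegfa to −2.26 in Ddit4.

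The difference between the combinations at 4 h, LPS with ISO minus LPS with PGE2, was largest in Ddit4. It was −1.40, −2.26 and −1.53 in the 3 sets, with a mean of −1.73 (95% interval −2.62 to −0.84), or 3.32-fold lower. For Hilpda it was −0.78, −1.12 and −1.08 (mean −0.99), and for Vegfa −0.69, −0.89 and −0.84 (mean −0.81). Without the block no gene of 10518 passed (0%, limma; 154 at an unadjusted p under 0.05), and the 3 genes each had limma adjusted p = 1. By unadjusted p they ranked 3, 10 and 52 of all genes for Ddit4, Vegfa and Hilpda. The genes were chosen for their ratios with ISO or PGE2, so these ranks are not independent of that choice.

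With the set as a block, 1 gene of 10518 passed (0.00951%), and it was Ddit4 (limma adjusted p = 0.000132). It passed with the block and each set left out too (limma adjusted p from 0.000249 to 0.0131). The block was chosen after the data were seen, and Ddit4 for its ratios with ISO or PGE2. These calls are therefore not independent of those choices, and without the block Ddit4 did not pass. Vegfa had limma adjusted p = 0.403 and Hilpda 0.478 with the block. At 1 and 2 h none of the 3 passed with or without the block, and over all genes 0% passed at either time (128 and 168 genes at an unadjusted p under 0.05).

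LPS with PGE2 lay above LPS alone at 4 h by 0.16, 1.05 and 1.05 in the 3 sets of Vegfa. The differences were 0.26, 1.67 and 0.59 in Hilpda, and 0.68, 2.22 and 1.34 in Ddit4. Set 1 gave the smallest gain in each gene. The means were 0.75 for Vegfa (limma adjusted p = 0.797), 0.84 for Hilpda (limma adjusted p = 1) and 1.41 for Ddit4 (limma adjusted p = 0.579), so none passed where 3 genes in all did (0.0285%). With the block Vegfa (limma adjusted p = 0.0424) and Ddit4 (limma adjusted p = 0.00166) passed, with 50 genes in all (0.475%), and Hilpda had 0.145. The genes were chosen for ratios above 0 with ISO or PGE2, so these calls are not independent of that choice. Neither call held without set 2 (limma adjusted p = 0.414 and 0.111) or without set 3 (0.492 and 0.0805).

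At 1 and 2 h the differences between LPS with PGE2 and LPS alone were smaller than at 4 h. Vegfa differed by 0.22 and 0.24, Hilpda by 0.20 and 0.18, and Ddit4 by 0.78 and 0.36, none of them called. The Hilpda value at 1 h includes an array listed at exactly 0 in set 2 of LPS with PGE2, and with zeros as missing it was 0.53 (limma adjusted p = 0.999). Over all genes 0% passed at 1 h and 0% at 2 h, with 484 and 242 at an unadjusted p under 0.05. In Ddit4 at 1 h the sets with PGE2 (2.02, 1.27 and 1.01) all lay above those with LPS alone. The share of all genes that did so was not counted.

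With LPS and ISO all 3 genes had their highest means at 1 h. Vegfa then measured 1.65, 0.72 and 0.93, Hilpda 2.88, 1.92 and 2.14, and Ddit4 2.29, 1.29 and 1.16. The differences from LPS were 0.36, 0.54 and 0.93 in that order, and each was above 0 in 3 of 3 sets. None passed (limma adjusted p = 0.936, 0.941 and 0.814; 0.019% of all genes passed). At 2 h they were −0.09, 0.05 and 0.39 (0% of all genes passed, 308 at an unadjusted p under 0.05). At 4 h they were −0.05, −0.15 and −0.32 (0.0951% passed), and every 95% interval of the members held 0.

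**Figure D3:**
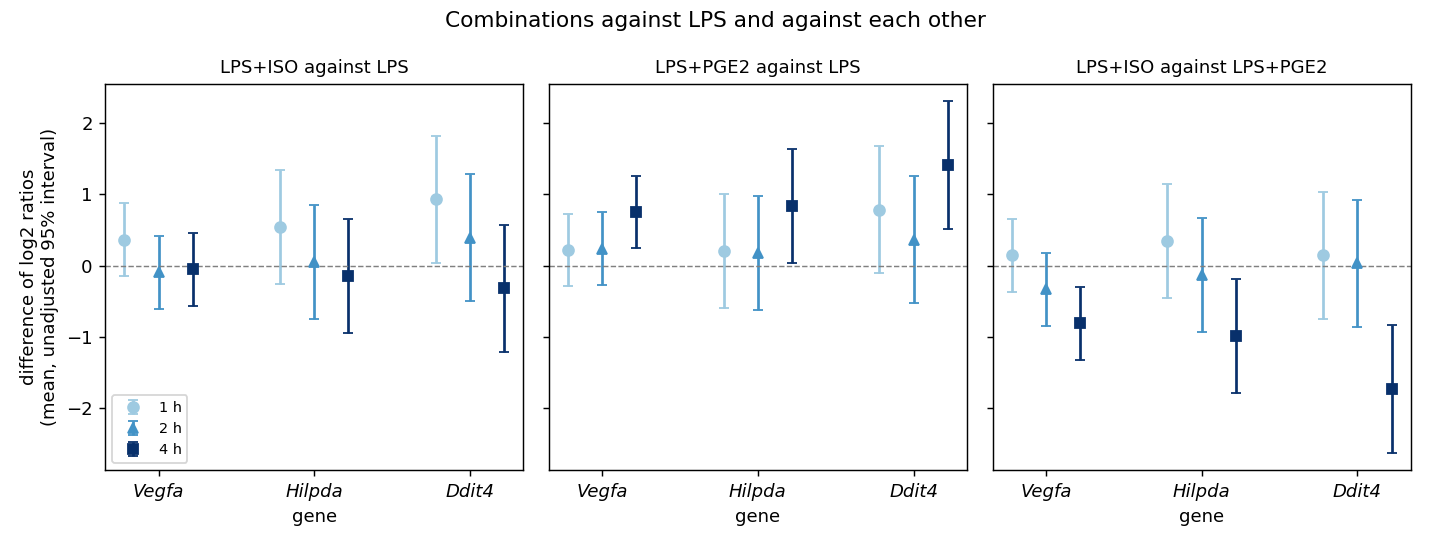
Difference of log2 ratios (vertical axis, mean with unadjusted 95% interval from the fit over all groups) for each gene and time in 3 comparisons. At 4 h the intervals for LPS with PGE2 against LPS lie above 0, at 0.75, 0.84 and 1.41, and those for LPS with ISO against LPS cross 0.

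The change of these differences from LPS between 1 and 4 h passed for no gene of 10518 with either ligand (0% and 0%, limma). At an unadjusted p under 0.05 there were 401 genes with ISO and 386 with PGE2. In Ddit4 the change was −1.25 with ISO (95% interval −2.51 to 0.01) and 0.63 with PGE2 (−0.63 to 1.89).

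The ratios of a combination were lower than the sum of the ratios of its parts at 1 and 2 h. For Hilpda at 1 h LPS and ISO summed to 3.58 and measured 2.31 together, and LPS and PGE2 summed to 3.30 and measured 1.97, or 2.31 with the array at 0 as missing. At 4 h with PGE2 the order turned: Vegfa measured 0.69 against a sum of 0.38, Hilpda 2.23 against 1.54, and Ddit4 0.50 against −0.49. These sums share the groups that chose the genes and carry no test.

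Ordered by mean over the 15 groups, LPS with ISO at 1 h was highest for all 3 genes. The lowest was LPS with ISO at 4 h for Vegfa (−0.12) and Ddit4 (−1.23), and ISO at 4 h for Hilpda (−0.02). Neighbours in the order overlapped in 13 of 14 steps for Vegfa, 13 of 14 for Hilpda and 14 of 14 for Ddit4. The gaps lay between PGE2 and ISO at 4 h for Vegfa, and between PGE2 at 2 h and PGE2 at 4 h for Hilpda.

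Both dye orientations gave the same sign in 40 of 44 pairs for Vegfa, 39 of the 41 measured on both arrays for Hilpda, and 41 of 44 for Ddit4. Their median absolute difference was 0.089, 0.16 and 0.23. The largest was 1.79, in Vegfa with LPS and PGE2 at 2 h, where set 1 measured 1.85 with the treated RNA in Cy5 and 0.06 in Cy3. Next was 0.96, in Vegfa with LPS and ISO at 2 h, where set 1 measured 0.55 in Cy5 and −0.41 in Cy3. Hilpda was listed at 0 on 3 of 88 arrays. For set 2 of LPS with PGE2 at 1 h this gave 1.00 in place of 1.99 from the other array. The ratio with the treated RNA in Cy5 was the higher in 29 of 44 pairs for Vegfa, 36 of 41 for Hilpda and 9 of 44 for Ddit4. Over all probes, r within a pair ran from −0.59 to 0.31 in the 17 pairs without LPS, with 10 below 0. In the 27 pairs with LPS it ran from 0.18 to 0.84.

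**Figure D4:**
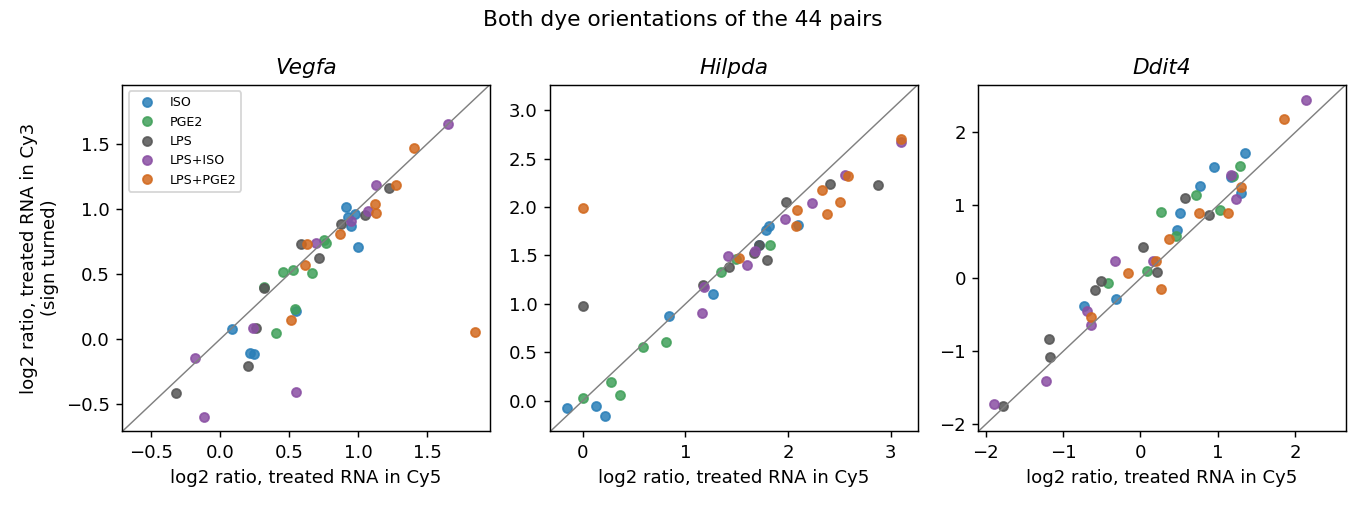
Log2 ratio with the treated RNA in Cy5 (horizontal axis) against the same set with it in Cy3, sign turned (vertical axis), for the 44 pairs coloured by treatment, with a line of equality. The points farthest from the line are Vegfa pairs at 1.85 and 0.06 and at 0.55 and −0.41, and Hilpda pairs at 0 and 1.99 and at 0 and 0.98, each with an array listed at 0.

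The pathway that controls HIF was measured through 15 of its 18 listed components. With LPS limma called 3 higher and 1 lower at 1 h, 2 higher at 2 h, and 2 higher and 1 lower at 4 h. These are 26.7%, 13.3% and 20.0% of the list, beside 9.48%, 15.9% and 30.7% of all genes. Siah2, a ubiquitin ligase that targets HIF prolyl hydroxylases, rose by 1.08, 1.02 and 0.45. Cited2, which competes with HIF for its coactivator, rose at 1 h (0.61) and 4 h (0.57), Arnt rose at 1 h (0.24) and 2 h (0.21), Vhl fell by 0.57 at 1 h, and Siah1a fell by 0.28 at 4 h. Hif1a itself passed in none of these comparisons, with ratios from −0.31 (ISO, 2 h) to 0.11 (LPS, 2 h). With ISO, 1 component passed (Arnt at 4 h, 0.35) and 95 (0.903%), 180 (1.71%) and 353 (3.36%) of all genes did at 1, 2 and 4 h. With PGE2 no component passed, and 34 (0.323%), 48 (0.456%) and 120 (1.14%) of all genes did. Epas1, Hif3a, Arnt2, Egln2, Egln3, Hif1an, Elob, Eloc and Cul2 passed in none of the comparisons with medium.

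Of 17 measured glycolytic targets, 1, 2 and 4 rose with LPS at 1, 2 and 4 h and none fell. These shares (5.88%, 11.8% and 23.5%) lie below the 9.48%, 15.9% and 30.7% over all genes. At 4 h the glucose transporter Slc2a1 reached 1.00, the hexokinase Hk2 0.94 and the glycolytic regulator Pfkfb3 0.87. Slc2a1 also rose with ISO at 1 h (0.34) and 2 h (0.40) and with PGE2 at 4 h (0.33), and the lactate transporter gene Slc16a3 fell by 0.38 with ISO at 4 h. No other gene of the list was called with ISO or PGE2. With ISO 5.88% of the list was called at each time, beside 0.903%, 1.71% and 3.36% of all genes. With PGE2 at 4 h it was 5.88%, beside 1.14%. Medians of the list lay between −0.0029 and 0.094 in the comparisons with medium, beside −0.0024 to 0.0062 over all genes.

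Of 30 other measured targets, LPS raised 3, 6 and 9 and lowered 1, 1 and 3, or 13.3%, 23.3% and 40.0% of the list beside 9.48%, 15.9% and 30.7% of all genes. The transcription factor Bhlhe40 rose by 1.79 at 2 h, the growth factor gene Pdgfb by 1.74 at 2 h, and the endothelin gene Edn1 by 1.59 at 4 h, although Edn1 was measured on 22 of 88 arrays. ISO raised 1 at each time, Mxi1 (0.49, 0.60 and 0.40), and lowered 0, 2 and 3, and PGE2 lowered 1 at 2 h. With ISO these are 3.33%, 10% and 13.3% of the list, beside 0.903%, 1.71% and 3.36% of all genes. With PGE2 at 2 h it is 3.33%, beside 0.456%. Pdgfb was among those lower, at −1.48 with ISO and −1.06 with PGE2 at 2 h, where Vegfa, Hilpda and Ddit4 were above medium.

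**Figure D5:**
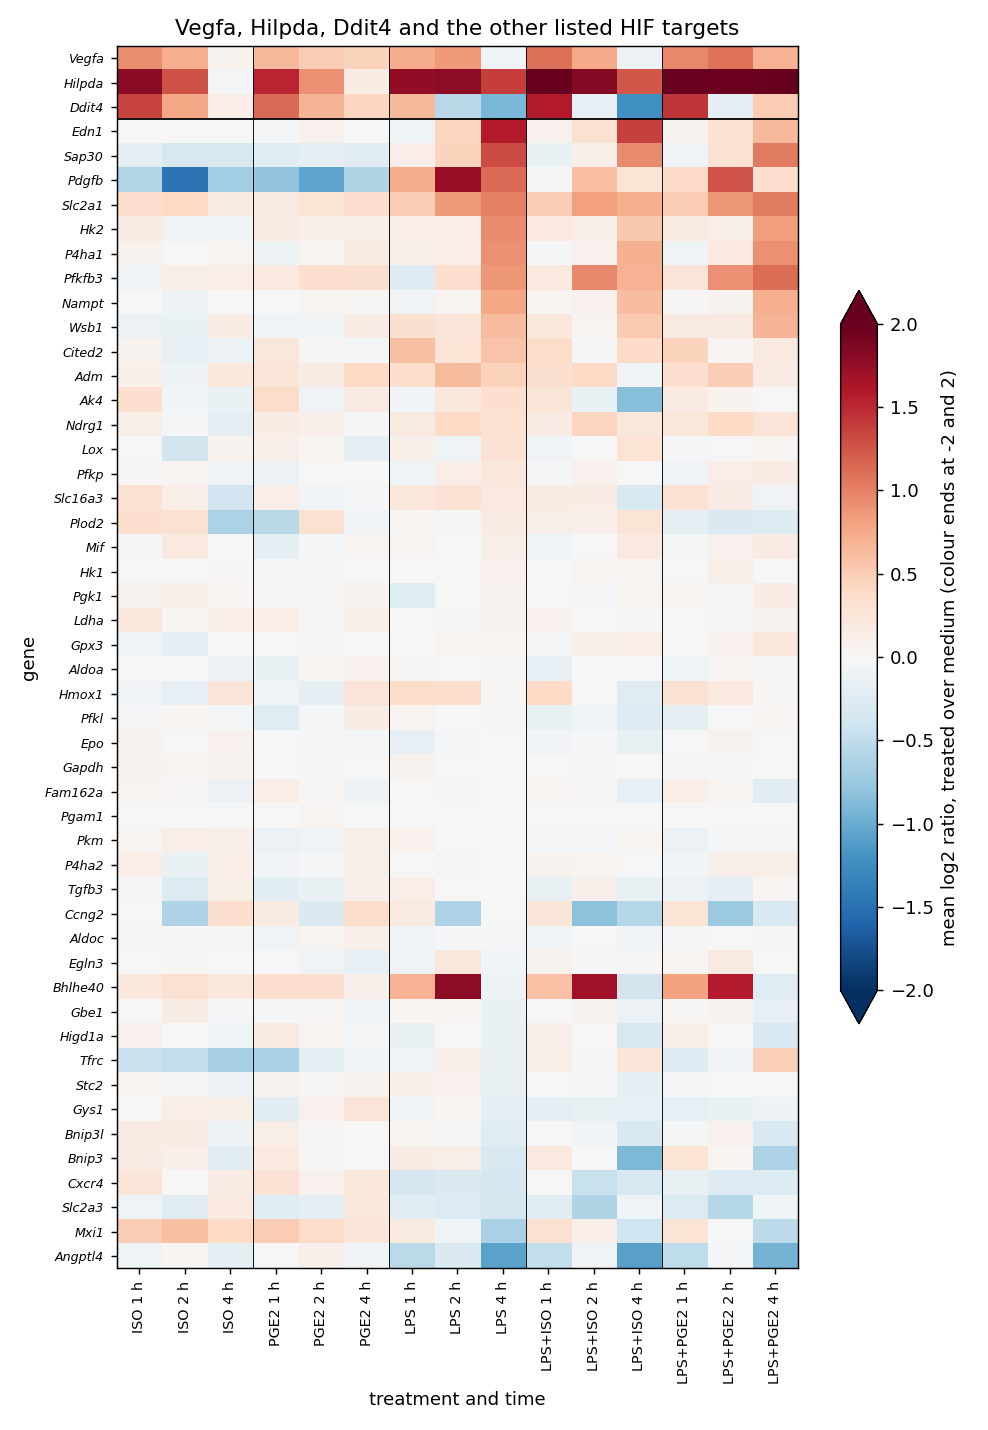
Mean log2 ratio of treated over medium (colour, limits −2 and 2) for the 3 genes above the line and 47 other listed HIF targets below it, ordered by their value with LPS at 4 h, in the 15 groups. Hilpda is above medium with LPS at every time, and Pdgfb is at −1.48 with ISO at 2 h.

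Of 8 measured VEGF family genes besides Vegfa, none passed with ISO or PGE2 at any time. Of all genes only 0.903%, 1.71% and 3.36% passed with ISO and 0.323%, 0.456% and 1.14% with PGE2. LPS raised 0, 3 and 2 and lowered 1 at 4 h (0%, 37.5% and 37.5%, beside 9.48%, 15.9% and 30.7% of all genes). With LPS Vegfc, a lymphatic growth factor, rose at 2 h (0.92) and 4 h (2.37), and the receptor Kdr rose at 4 h (2.22). Flt4 (0.22) and Nrp1 (0.27, measured on 36 arrays) rose at 2 h, and Vegfb fell by 0.37 at 4 h. Vegfd, Pgf and Flt1 passed in none of these. Vegfa thus lay at −0.06 at the time when Vegfc and Kdr were highest.

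Around Hilpda, 23 genes of lipid droplets and lipolysis were measured. LPS raised 2, 2 and 6 and lowered 1, 0 and 6 at 1, 2 and 4 h, or 13.0%, 8.70% and 52.2% of the list beside 9.48%, 15.9% and 30.7% of all genes. The fatty acid binding protein gene Fabp4 rose at all 3 times (1.33, 1.26 and 1.39), and Lpin1, a phosphatidate phosphatase, fell by 1.38 at 4 h. ISO changed 0 at 1 h, lowered 1 at 2 h and raised 2 and lowered 2 at 4 h, and PGE2 lowered 2 at 4 h only. With ISO these are 0%, 4.35% and 17.4% of the list, beside 0.903%, 1.71% and 3.36% of all genes. With PGE2 at 4 h it is 8.7%, beside 1.14%. The lipoprotein lipase gene Lpl fell by 0.61 with ISO and by 0.64 with PGE2 at 4 h. Abhd5, which encodes a coactivator of ATGL, fell by 0.40 with ISO at 2 h, by 0.44 with ISO at 4 h and by 0.36 with PGE2 at 4 h. The fatty acid receptor gene Cd36 (0.52) and the triglyceride synthesis gene Dgat1 (0.26) rose with ISO at 4 h.

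Around Ddit4, 24 genes of mTORC1 and its regulators were measured. LPS raised 1 and lowered 1 at 1 h, called none at 2 h and lowered 5 at 4 h. These shares (8.33%, 0% and 20.8%) lie below the 9.48%, 15.9% and 30.7% over all genes. ISO lowered 1 at 1 h (Lamtor3, −0.19) and raised 1 at 4 h (Deptor, 0.28), and PGE2 called none. With ISO each is 4.17% of the list, beside 0.903% of all genes at 1 h and 3.36% at 4 h. With PGE2 0.323%, 0.456% and 1.14% of all genes were called. With LPS Sesn2, another mTORC1 inhibitor, rose by 0.79 at 1 h and fell by 0.47 at 4 h. Deptor fell by 0.69 at 4 h with LPS and Mlst8 by 0.46 at 1 h with LPS. Of 20 integrated stress response genes, LPS raised 8, 8 and 9, led by Ppp1r15a (3.06 at 1 h), Gadd45a (2.89 at 2 h) and Atf3 (2.30 at 4 h), and lowered 1, 0 and 3. These are 45.0%, 40.0% and 60.0% of the list, beside 9.48%, 15.9% and 30.7% of all genes. None rose with ISO or PGE2, and Atf3 fell by 2.13 with ISO and by 1.64 with PGE2 at 2 h. Each is 5% of the list, beside 1.71% of all genes with ISO and 0.456% with PGE2.

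Of 24 measured cyclic AMP and CREB targets, ISO raised 8, 6 and 1 at 1, 2 and 4 h and PGE2 raised 3, 2 and 1. Over all genes ISO called 0.903%, 1.71% and 3.36% and PGE2 0.323%, 0.456% and 1.14%. Rgs2, which dampens signalling by G proteins, fell with both ligands at each time, from −1.78 (ISO, 2 h) to −0.91 (ISO, 4 h), and Klf4 fell by 0.89 with PGE2 at 4 h. LPS raised 10, 9 and 9 of them and lowered 1, 2 and 2, which is 45.8% at each time beside 9.48%, 15.9% and 30.7% of all genes, with Btg2 at 4.12 and Dusp1 at 3.66 at 1 h and Il10 at 3.20 at 4 h. Dusp1 (1.71) and Btg2 (1.46) also rose with ISO at 1 h. The median of the list was 0.34 with ISO at 1 h and −0.02 at 4 h, beside 0.0062 and −0.0024 over all genes.

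Genes with a pattern like each member were ranked by Pearson's r over the 44 pairs, among 8589 genes measured on at least 44 arrays; pairs of a set and time may share medium RNA, which the labels do not state, and no test was made. Vegfa was most like Epha2 (0.85), Gpcpd1 (0.76), Fosl2 (0.76), Hdac9 (0.74) and Tmem135 (0.73). Hilpda was most like Rab20 (0.84), Fosl1 (0.79), Ier3 (0.78), Siah2 (0.77) and Coq10b (0.77). Ddit4 was most like P2ry12 (0.76), Zfp248 (0.75), Ric1 (0.75), Evi5 (0.74) and Smad6 (0.74). A high r does not mean the same sign. With LPS and PGE2 at 4 h these lay at −1.4, −0.54, −0.03, −0.24 and −0.68 in that order, where Ddit4 lay at 0.50. Among the members r was 0.63 for Vegfa and Hilpda, 0.53 for Vegfa and Ddit4, and 0.32 for Hilpda and Ddit4. Hilpda ranked 81 among genes like Vegfa, and Vegfa ranked 48 among genes like Hilpda. The ranks were 333 and 434 for Vegfa and Ddit4, and 1076 and 1750 for Hilpda and Ddit4.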

How the data were processed

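The deposited values are log2 ratios, 1 per probe, on 88 arrays. The scale is inferred (the largest value, 6.64, is log2 of 100), as is the direction. Normalization by the authors was not given in the sources used here. Shares of probes at exactly 0 ran from 10.9 to 45.7% per array. Ratios were turned to treated over medium, read as Cy5 over Cy3, and both arrays of a pair were averaged. Probes were named from the platform table, with symbols updated through Entrez identifiers (GRCm38.p6); 13260 probes with 1 gene gave 10518 genes. Promoter sequences are from RefSeq, GRCm38.p6.

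R 4.3.3 with limma 3.58.1 (statmod 1.5.0) fitted 1 mean per group to the 44 pairs, with eBayes and Benjamini-Hochberg adjustment over all genes and a threshold of 0.05 (29 residual degrees of freedom). The script was tested on simulated data. Intervals are 95% and unadjusted, and tests are two-sided. A ratio against 0 is the test against medium.

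Members and gene lists were chosen with earlier results of these data known. Named genes are the 3 members, the 5 genes most correlated with each, up to 3 genes per list with the largest called ratio of one sign in every set, and all VEGF family genes and HIF components. Slc16a3, Mxi1, Abhd5, Cd36, Dgat1, Lamtor3, Rgs2 and Klf4 were named after their values were seen, to complete counts.

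Set numbers come from the titles. Same-numbered sets of a time deviated together: r between deviations from group means was 0.197 to 0.766 in every compared pair within a time, and over all pairs of groups 84 of 86 were over 0.1. The set within time was therefore also fitted as a block, chosen after the data were seen. Other alternatives were zeros as missing, only the compared groups, the set number as a block, centred and scaled arrays, a filter on measured arrays, 1 dye, robust eBayes and leaving out each set.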

Additional observations from a re-analysis of the deposited data

Results flagged for a closer look

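The LPS response of 2 of the 3 genes differed between 1 and 4 h by a test of the difference itself. The same test passed for 19.9% of all genes. For Vegfa the ratio at 4 h minus that at 1 h was −0.80 (limma adjusted p = 0.0194, Benjamini-Hochberg over 10518 genes), with all 3 sets at 4 h below all 3 at 1 h. For Ddit4 it was −1.56 (limma adjusted p = 0.00869), and its sets did not overlap either. How many of all genes had sets without overlap was not counted. Vegfa lost the call without set 1 of LPS at 1 h (limma adjusted p = 0.176), with another set left out, and with only treated RNA in Cy3. Ddit4 lost it without set 2 of LPS at 4 h (limma adjusted p = 0.0971). Both lost it with arrays centred and scaled, and with only the compared groups in the fit. The call held in 10 of 15 alternatives for Vegfa and in 12 of 15 for Ddit4.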

How the results depend on the processing

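Of 45 tested values of the 3 genes, 8 passed the threshold as reported, and none of those 8 reversed in any alternative. Over the 699 alternatives of all 45, called values stayed called in 84 and lost the call in 18. Of the values not called, 14 alternatives passed and 36 changed sign, all at limma adjusted p of 0.966 or more. Where the cause is not named, the cause was not tested. Robust eBayes changed no call of the 3 genes, and each probe on its own gave nothing further, since each gene has 1 probe. No intensities were used, so what signal over background limits is unknown.

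The 18 values of the 3 genes with ISO or PGE2 alone, which carry no test, stayed within 1 SD of the sets in 204 of 213 alternatives and moved in 9. With arrays centred and scaled, ISO values were 1.10 for Vegfa, 2.12 for Hilpda and 1.55 for Ddit4 at 1 h and 1.06 for Ddit4 at 2 h. PGE2 values were then 0.76 for Vegfa and 0.98 for Ddit4 at 2 h and 0.59 for Vegfa at 4 h. Vegfa with ISO at 4 h was 0.18 with only Cy5 and −0.047 with only Cy3. Signs changed in 6 alternatives, all at 4 h: besides that Cy3 value, Hilpda with ISO (0.065 with only Cy5, 0.031 without set 3), Ddit4 with ISO (−0.027 with only Cy5, −0.42 without set 1) and Ddit4 with PGE2 (−0.074 without set 1). With zeros as missing, Hilpda differences moved to 0.0079 for LPS+ISO against LPS+PGE2 at 1 h, −0.31 for LPS+ISO against LPS at 4 h, −0.22 for LPS at 4 h minus 1 h and 0.15 for LPS+PGE2 against LPS at 4 h minus 1 h, none called.

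With only the compared groups in the fit, and so fewer samples behind the spread, the LPS values stayed as reported and lost their calls: Vegfa 0.74 at 1 h, 0.85 at 2 h and −0.80 for 4 h minus 1 h, Hilpda 1.78, 1.78 and 1.39, and Ddit4 −0.91 at 4 h and −1.56 for 4 h minus 1 h. The genes called with LPS were then 5, 131 and 1461, and 932 for 4 h minus 1 h. They were 0 for ISO and for PGE2 at each time, for LPS+ISO against LPS at 1 and 4 h, and for LPS+PGE2 against LPS at 4 h.

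With arrays centred and scaled, Ddit4 with LPS at 4 h was −0.64 and its 4 h minus 1 h value −1.29, and the latter was −0.75 for Vegfa, all no longer called. Hilpda in LPS+ISO against LPS+PGE2 at 2 h turned to 0.010. Called genes were then 225 and 615 for ISO at 1 and 2 h, 89, 242 and 591 for PGE2 at 1, 2 and 4 h, 1272 for LPS 4 h minus 1 h, and 0 for LPS+ISO against LPS at 1 and 4 h and LPS+PGE2 against LPS at 4 h. The share of called genes that were higher moved from 78.9 to 64.4% for ISO at 1 h and from 61.8 to 36.0% for PGE2 at 1 h.

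With only treated RNA in Cy3, Vegfa with LPS at 4 h minus 1 h was −0.90 and not called. Signs turned for Hilpda in LPS+ISO against LPS+PGE2 at 1 h (−0.026) and in LPS+PGE2 against LPS at 4 h minus 1 h (−0.067), and for Vegfa in LPS+PGE2 against LPS at 2 h (−0.099). With only Cy5 they turned for Ddit4 in LPS+ISO against LPS+PGE2 at 2 h (−0.088), Hilpda in LPS+ISO against LPS at 4 h (0.082) and LPS+PGE2 against LPS at 1 h (−0.18), and Vegfa with LPS at 4 h (0.050) and in LPS+ISO against LPS at 2 h (0.082).

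With the set within time as a replicate block, newly called values were Ddit4 with LPS at 1 h (0.65) and 2 h (−0.55), Ddit4 in LPS+ISO against LPS+PGE2 at 4 h (−1.73), and Ddit4 (1.41) and Vegfa (0.75) in LPS+PGE2 against LPS at 4 h. The replicate block changed no other call of the 3 genes. Leaving out 1 set as well, calls held for Ddit4 with LPS at 1 h without set 2 (0.86) or 3 (0.54), at 2 h without set 1 (−0.69) or 2 (−0.64), in LPS+ISO against LPS+PGE2 at 4 h without set 1 (−1.90), 2 (−1.47) or 3 (−1.83), and in LPS+PGE2 against LPS at 4 h without set 1 for Ddit4 (1.78) and Vegfa (1.05).

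Called genes with that block were 540, 564 and 1178 for ISO, 435, 180 and 573 for PGE2, and 2074 and 2610 for LPS at 1 and 2 h. They were 6, 16 and 53 for LPS+ISO against LPS, 3, 3 and 50 for LPS+PGE2 against LPS, 2 for each of these at 4 h minus 1 h, and 1 for LPS+ISO against LPS+PGE2 at 4 h. With the set number alone as a replicate block, 18 and 10 were called for LPS+ISO and LPS+PGE2 against LPS at 4 h. With zeros as missing the latter was 6, and with a filter on measured arrays LPS+ISO against LPS at 2 h gave 1.

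Leaving out 1 set without a block, Vegfa with LPS ranged from 0.51 to 0.93 at 1 h, from −0.18 to 0.086 at 4 h and from −0.99 to −0.58 for 4 h minus 1 h. Ddit4 with LPS ranged from −1.44 to −0.49 at 4 h and from −2.09 to −1.14 for 4 h minus 1 h, and Hilpda from −0.70 to 0.064 for the latter. In LPS+ISO against LPS, Vegfa ranged from −0.30 to 0.25 at 2 h and −0.20 to 0.065 at 4 h, Hilpda from −0.25 to 0.32 and −0.60 to 0.16, and Ddit4 from −0.74 to 0.21 at 4 h. In LPS+PGE2 against LPS, Vegfa ranged from −0.022 to 0.44 at 1 h, and Hilpda from −0.26 to 0.69 at 1 h and −0.062 to 0.45 at 2 h. In LPS+ISO against LPS+PGE2, Vegfa ranged from −0.13 to 0.38 at 1 h and −0.54 to 0.0076 at 2 h, Hilpda from −0.15 to 0.80 and −0.43 to 0.12, and Ddit4 from −0.21 to 0.44 and −0.17 to 0.27.

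Called genes then ranged from 393 to 1342 and 1077 to 1347 for LPS at 1 and 2 h, from 56 to 92, 92 to 138 and 211 to 262 for ISO, and from 15 to 26, 23 to 35 and 35 to 68 for PGE2. They ranged from 0 to 1, 0 to 2 and 4 to 12 for LPS+ISO against LPS at 1, 2 and 4 h and from 0 to 1 for 4 h minus 1 h. They ranged from 0 to 1 and 1 to 9 for LPS+PGE2 against LPS at 2 and 4 h, and from 0 to 2 and 0 to 1 for LPS+ISO against LPS+PGE2 at 1 and 4 h.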
